A study of Mus musculus with 4 samples.

Results

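Aminoacyl-tRNA synthetases join each amino acid to its matching tRNA and so supply the ribosome with its substrates. The members here are 36 synthetase genes, 20 for cytosolic enzymes and 16 for mitochondrial ones (symbols ending in 2). They were taken by gene symbol from tables of 23700 rows, in which each of the 36 stood on 1 row. The tables come from RNA sequencing of splenic CD4 helper T cells of C57BL/6 mice at an age of 43 weeks, 4 libraries in all. Wild-type cells gave 2 libraries (WT 1, WT 2), and cells labelled RIPK1-KO, in which the kinase RIPK1 is deleted in T cells only, gave 2 (KO 1, KO 2). All 4 titles also carry the word Ctrl, which the labels do not explain. The sources used here give neither the Cre line nor the deleted part of the gene. Nor do they say whether each library is a mouse of its own, and the p-values therefore measure only how far these libraries spread, which may be technical.

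In mammals most of these enzymes come as a cytosolic and a mitochondrial form made from separate nuclear genes, while 1 gene each (Gars and Kars) makes both forms of the glycyl and lysyl enzymes. Some cytosolic enzymes are held together in the multisynthetase complex on the scaffold proteins AIMP1, AIMP2 and AIMP3 (the last encoded by Eef1e1), and the others work free in the cytosol. When amino acids run short, uncharged tRNA activates the kinase GCN2 (Eif2ak4), and the transcription factor ATF4 then raises many synthetase and amino acid transport genes. Activated T cells step up protein synthesis and amino acid uptake.

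The tables give FPKM, fragments per kilobase of transcript, scaled to all mapped fragments. The spacing of low values put the depth at about 21400000 (WT 1), 22100000 (WT 2), 17600000 (KO 1) and 19200000 fragments (KO 2). The summed level of 7 CD4 T cell markers was 822 and 1057 FPKM for WT 1 and WT 2, against 1320 and 1262 FPKM for the libraries labelled KO, with none at 0. Of 2 CD8 T cell markers, Cd8a lay between 0.249 and 0.764 FPKM and Cd8b1 between 10.3 and 11.3 FPKM. Ripk1 itself had 5.61 and 5.602 FPKM (wild type) and 10.4 and 9.54 FPKM (KO 1, KO 2), which goes against the label; whether single exons are missing cannot be read from 1 value per gene. All directions are therefore those of the libraries labelled KO. Some other marker lists moved with the groups, beside 25.6% of all genes called higher. All 9 genes of dividing cells were called higher, with summed levels of 8.57 and 9.72 FPKM (wild type) against 89.9 and 41.0 FPKM (KO 1, KO 2). Erythroid markers (5 of 7 called) summed to 4.52 and 65.7 against 270 and 216 FPKM, with 3 at 0 in WT 1. B cell markers (2 of 6 called) summed to 6.62 and 6.51 against 14.2 and 13.6 FPKM, and Pax5 was at most 0.417 FPKM. Plasma cell markers (1 of 5 called) summed to 14.9 and 21.2 against 30.2 and 34.03 FPKM, with Tnfrsf17 at 0 in both wild-type libraries. Sdc1 and Pax5 had lower means in the libraries labelled KO, with overlapping groups. Myeloid markers (1 of 7 called) summed to 5.08 and 40.5 FPKM (wild type) against 19.5 and 50.5 FPKM (KO 1, KO 2), so the groups overlapped. Dendritic markers (0 of 3 called) summed to 20.1 and 16.5 against 13.5 and 14.4 FPKM, lower in the libraries labelled KO. Most of this sum was Xcr1 (19.6 and 16.4 against 13.1 and 13.8 FPKM). Flt3 overlapped between groups, and Zbtb46 lay higher in both libraries labelled KO (0.206 and 0 against 0.258 and 0.573 FPKM). NK markers (0 of 3 called) overlapped, at 1.11 and 0.691 against 0.857 and 0.606 FPKM. The part of these markers in the results below was not tested.

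As deposited, 8 synthetase genes were higher in the libraries labelled KO and 0 were lower (limma, adjusted p under 0.05 over the 11074 genes with 1 FPKM or more in 2 or more libraries; all 36 members were tested, and 13 had an unadjusted p under 0.05). That is 22.2% of the members, against 25.6% of all genes called higher and 1.0% called lower. The 8 were Vars, Aars, Kars, Wars and Qars of the cytosol and Fars2, Vars2 and Aars2 of the mitochondria. Both libraries labelled KO lay above both of the wild type for 23 members (63.9%, against 58.5% of all genes) and below for 3 (12.1% of all genes). The median change of the members was 0.36 on the log2(FPKM + 1) scale, beside 0.38 for all genes tested, with quartiles of 0.14 and 0.61 (0.03 and 0.72 for all genes). As a family the synthetases thus moved about as far as the median gene. Trimmed-mean scaling, which sets the bulk of genes level, called 0 members higher and 1, Lars2, lower, against 4.52% and 3.74% of all genes (higher calls were 96.2% of all calls as deposited and 54.8% after scaling), and the members' median was then -0.04. Leaving out WT 1 ended all 8 calls (9 of 10915 genes were then higher). The changes of the 8 were then 0.57 to 0.96, against 0.62 to 1.04 with all libraries.

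**Figure D1:**
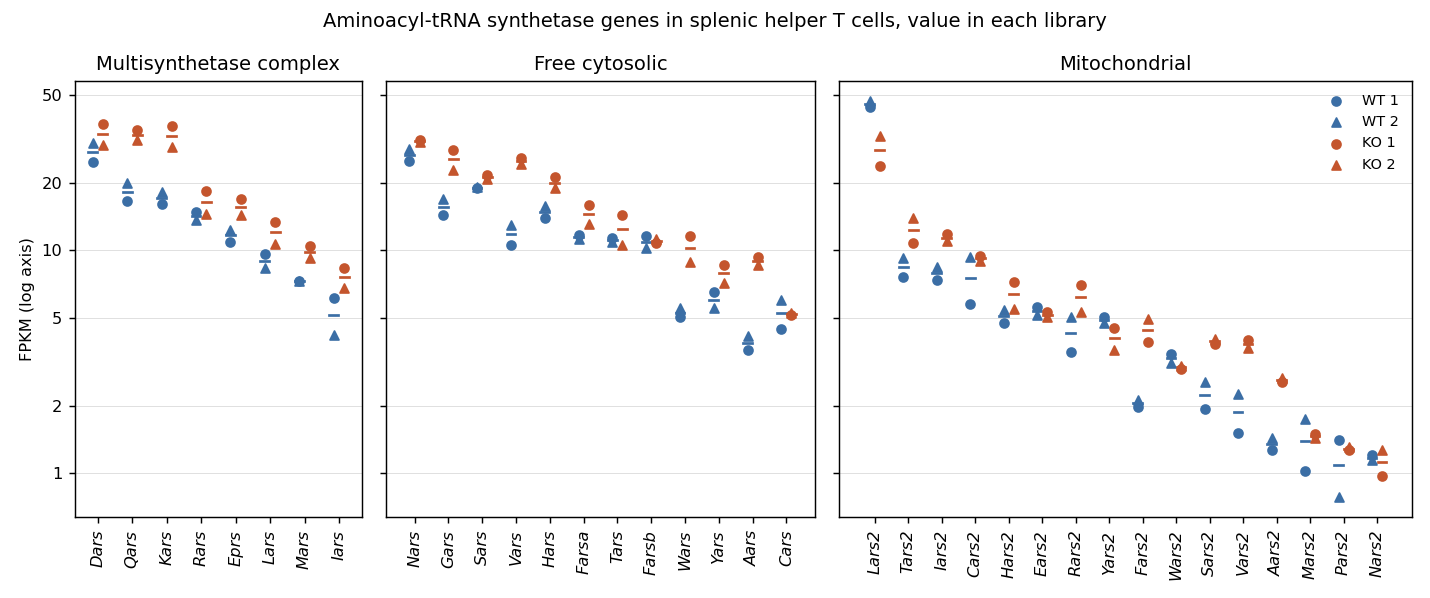
FPKM of the 36 synthetase genes in each library (vertical log axis), by role and ordered by mean level; blue marks wild type and red KO, circles replicate 1, triangles replicate 2, and short bars group means. The red points lie above the blue for 23 genes, the 8 called genes among them, and below them for Lars2, Yars2 and Wars2.

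Levels differed widely within the family. FPKM is scaled to length, so genes can be set side by side, but the sources used here do not give the lengths. Lars2 had the highest mean level over the 4 libraries (37.0 FPKM), followed by Dars (30.5 FPKM) and Nars (29.0 FPKM), whose ranges overlapped. That order was not the same in both groups: the mean of Lars2 was 45.6 FPKM in the wild type, above Dars at 27.8 FPKM, and 28.3 FPKM in the libraries labelled KO, below Dars (33.3 FPKM), Qars (33.0 FPKM), Kars (32.8 FPKM) and Nars (31.1 FPKM). The lowest were Mars2 (1.43 FPKM), Pars2 (1.19 FPKM) and Nars2 (1.15 FPKM), whose ranges also overlapped. The median cytosolic gene was at 11.5 to 16.5 FPKM in the 4 libraries and the median mitochondrial gene at 3.46 to 4.46 FPKM. A member's value rested on about 52 fragments (lowest library of Pars2) to 4045 fragments (highest library of Lars2), taking the longest coding transcript.

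The valyl and alanyl enzymes rose in both compartments as deposited. Vars, which charges valine tRNA in the cytosol, was at 10.6 FPKM in WT 1, 13.1 FPKM in WT 2, 25.98 FPKM in KO 1 and 24.6 FPKM in KO 2; values below keep this order, wild type first. The groups did not overlap, and the mean was 2.14-fold higher (log2 change 1.04 ± 0.20, SE; limma adjusted p = 0.0175). Vars2, its mitochondrial counterpart, was at 1.51 and 2.25 FPKM against 3.98 and 3.66 FPKM (2.03-fold, log2 change 0.75 ± 0.20; limma adjusted p = 0.0356). The ratio of Vars to Vars2 was 6.996 and 5.79 in the wild type and 6.53 and 6.71 in the libraries labelled KO, so the groups overlapped in this ratio. Aars, the cytosolic alanyl enzyme, was at 3.57 and 4.13 FPKM against 9.31 and 8.596 FPKM (2.33-fold, log2 change 1.04 ± 0.17; limma adjusted p = 0.0145). Aars2 was at 1.27 and 1.43 FPKM against 2.56 and 2.68 FPKM (1.93-fold, log2 change 0.62 ± 0.18; limma adjusted p = 0.0439). All 4 genes were apart between the groups, and within a group the libraries lay farthest apart, as a ratio, for Vars2 in the wild type. After trimmed-mean scaling the changes were 0.62 for Vars (limma adjusted p = 0.0542), 0.65 for Aars (0.0519), 0.43 for Vars2 (0.153) and 0.33 for Aars2 (0.233).

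The promoter of Aars is shown because it was the called member that held both sequence motifs searched. The source was RefSeq (GRCm38.p6; another build than the mm8 named for the FPKM values), which gave a window of 300 bases around the start for 26 of the 36 members. The C/EBP-ATF element, a binding motif of ATF4 and its partners, was searched as TGATGNAA and the E-box, bound by MYC, MAX and USF factors, as CACGTG, on both strands; the motifs do not overlap, and they were chosen with the values known. The 250 bases before the start of Aars, at chr8:111033592-111033841 on the + strand, carry the E-box (first capitals) 146 bases and the element (second capitals, on the other strand) 112 bases upstream.
Aars: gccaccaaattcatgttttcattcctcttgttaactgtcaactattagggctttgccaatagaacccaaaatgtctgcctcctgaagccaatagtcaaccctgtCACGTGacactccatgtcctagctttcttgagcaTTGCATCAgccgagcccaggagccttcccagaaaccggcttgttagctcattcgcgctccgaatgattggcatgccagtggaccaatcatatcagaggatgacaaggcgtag

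The element was found in 5 of the 26 members with a promoter (19.2%), against 4.51% of 27025 genes with a promoter of that length. All 5 were cytosolic, 5 of 12, with 0 of 14 mitochondrial ones. Aars holds another copy 9 bases after its start, outside the stretch printed above. The copies of the other 4 genes are shown with 11 bases on each side, the element in capitals, to let them be compared; those of Tars and Gars lie just before the start and those of Iars and Yars just after it. They lie at chr6:55037960-55037989 (+ strand) for Gars, chr13:49682126-49682155 (+) for Iars, chr15:11399655-11399684 (-) for Tars and chr4:129189895-129189924 (+) for Yars.
Gars: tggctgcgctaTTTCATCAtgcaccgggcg
Iars: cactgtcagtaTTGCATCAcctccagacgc
Tars: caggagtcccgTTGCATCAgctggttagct
Yars: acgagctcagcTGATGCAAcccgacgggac

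The 5 genes did not share 1 size of change. Their log2 changes were 1.04 for Aars, 0.67 for Gars, 0.49 for Iars, 0.34 for Yars and 0.14 for Tars, from well above to below the median gene, and Aars alone was called. The E-box was in 5 of 26 members (19.2%; Aars, Iars, Tars, Farsb and Ears2), against 8.09% of all genes with a promoter. These matches are descriptions of the windows and not binding sites.

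Of the 8 genes for enzymes of the multisynthetase complex, Kars and Qars rose as deposited and 6 did not pass. That share, 2 of 8, was close to the 25.6% of all genes called higher. Kars, whose gene also gives the mitochondrial lysyl enzyme, was at 16.2 and 18.3 FPKM against 36.4 and 29.2 FPKM (1.90-fold, log2 change 0.88 ± 0.21; limma adjusted p = 0.0269). Qars, the glutaminyl enzyme, was at 16.6 and 20.2 FPKM against 34.7 and 31.3 FPKM (1.79-fold, log2 change 0.81 ± 0.20; limma adjusted p = 0.0313). Both were apart between groups. Leaving out KO 1 ended these calls (limma adjusted p = 0.206 and 0.205), and without KO 2 Qars was at adjusted p = 0.095 (limma). Iars, for isoleucine, was at 6.09 and 4.18 FPKM against 8.36 and 6.78 FPKM and did not pass (limma adjusted p = 0.134). Eprs (glutamate and proline), Mars (methionine) and Lars (leucine) had log2 changes of 0.40, 0.39 and 0.39, at the median gene. Dars (aspartate) and Rars (arginine) had 0.25 and 0.19, and their groups overlapped. The median of the 8 was 0.39.

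The scaffold of the complex gave other values than its most changed enzymes, Kars and Qars, but this difference was not tested. Aimp1 was at 27.4 and 31.4 FPKM against 31.0 and 25.8 FPKM, and Aimp2 at 9.50 and 7.16 FPKM against 8.45 and 7.84 FPKM. In both the groups overlapped, as they did for the enzymes Dars and Rars. Eef1e1, whose product AIMP3 is the smallest scaffold protein, was at 12.1 and 16.02 FPKM against 9.49 and 7.21 FPKM, so that both libraries labelled KO lay below both of the wild type. Its change of -0.68 ± 0.22 did not pass as deposited (limma adjusted p = 0.0619), and after trimmed-mean scaling it fell by 1.10 on the log2 scale (limma adjusted p = 0.0307).

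Among the 12 other cytosolic genes, Vars, Aars and Wars rose as deposited. These 3 of 12 also made a share close to the 25.6% of all genes called higher. Wars, the tryptophanyl enzyme and a gene that interferon gamma induces, was at 5.002 and 5.50 FPKM against 11.7 and 8.90 FPKM (1.96-fold, log2 change 0.84 ± 0.20; limma adjusted p = 0.0262). The call was lost without KO 1 (limma adjusted p = 0.11) and, narrowly, without WT 2 (0.0582). Gars, which serves both compartments, was at 14.4 and 17.0 FPKM against 28.3 and 23.0 FPKM, apart between groups but short of the threshold (log2 change 0.67 ± 0.21; limma adjusted p = 0.0544). Hars, Yars and Farsa had changes of 0.41, 0.34 and 0.31, and Nars, Sars and Tars of 0.21, 0.15 and 0.14. Cars and Farsb had changes near 0, 0.00 (95% interval -0.45 to 0.46) and 0.02 (-0.41 to 0.44).

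Farsa and Farsb encode the catalytic and the other subunit of 1 enzyme, the cytosolic phenylalanyl synthetase. Farsa was at 11.7 and 11.2 FPKM against 15.9 and 13.2 FPKM, and Farsb at 11.6 and 10.3 FPKM against 10.8 and 11.3 FPKM. The ratio of Farsa to Farsb was 1.01 and 1.09 in the wild type and 1.48 and 1.17 in the libraries labelled KO. The groups were apart in this ratio, but KO 2 lay closer to WT 2 than to KO 1.

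All 20 cytosolic genes had a change above 0 as deposited, as had 8496 of the 11074 genes tested, and for 15 (75%, against 58.5% of all genes) both libraries labelled KO lay above both of the wild type. That count follows the scaling: their median was 0.39 as deposited and -0.03 after trimmed-mean scaling. In 18 of the 20, KO 1 was higher than KO 2 (58.0% of all genes tested), as it was for the summed level of the genes of dividing cells (89.9 and 41.0 FPKM); for the mitochondrial genes it was 8 of 16. Whether division plays a part in this was not tested. In these bulk samples more cells of a type and more RNA per cell cannot be told apart.

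**Figure D2:**
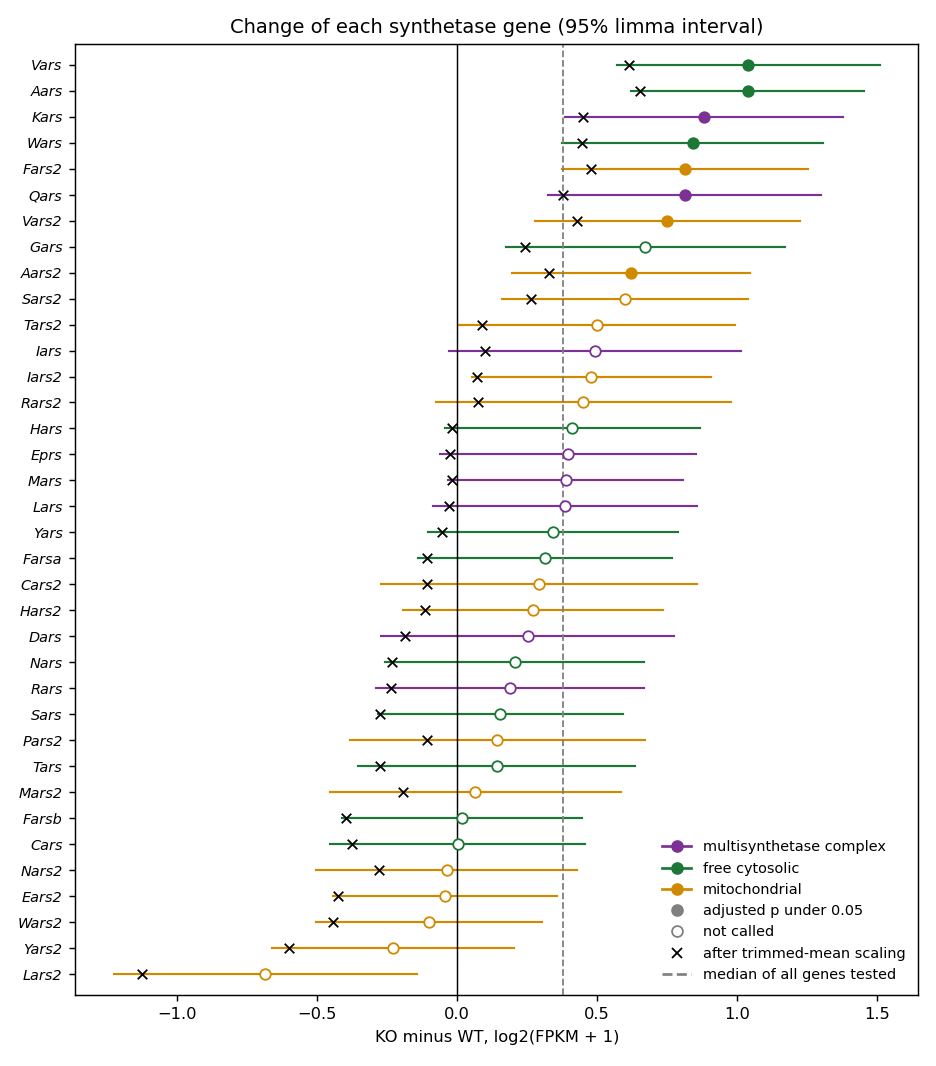
Change of each synthetase gene, KO minus WT on the log2(FPKM + 1) scale, with its 95% limma interval; filled circles passed an adjusted p of 0.05, crosses give the change after trimmed-mean scaling, and the dashed line is the median of all genes (0.38). The genes spread on both sides of the dashed line, from Lars2 at -0.69 to Vars at 1.04, and every cross lies left of its circle.

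Mitochondrial enzymes charge the tRNAs encoded by the mitochondrial genome, which serve to make respiratory chain subunits. Of the 16 genes, Fars2, Vars2 and Aars2 rose as deposited (18.75%, against 25.6% of all genes). The median change was 0.28, beside 0.38 for all genes tested. Fars2, the single-chain mitochondrial phenylalanyl enzyme, was at 1.99 and 2.13 FPKM against 3.89 and 4.92 FPKM (2.14-fold, log2 change 0.82 ± 0.18, limma adjusted p = 0.0245). Farsa and Farsb did not pass, and their difference from Fars2 was not tested. The Fars2 call was lost without WT 2 (limma adjusted p = 0.0598) and without KO 2 (0.0899). Vars2 did not pass without KO 1 (limma adjusted p = 0.0863), and Aars2 did not pass without any 1 of the 4 libraries (limma adjusted p = 0.0771 to 0.172). Sars2, for serine, was at 1.94 and 2.56 FPKM against 3.82 and 3.99 FPKM (log2 change 0.60 ± 0.18; limma adjusted p = 0.0532). Tars2, for threonine, was at 7.60 and 9.27 FPKM against 10.8 and 14.0 FPKM (log2 change 0.50 ± 0.21; limma adjusted p = 0.116). Iars2 and Rars2 had changes of 0.48 and 0.45, with both libraries labelled KO above both of the wild type. Cars2, Hars2, Pars2 and Mars2 had changes of 0.29, 0.27, 0.14 and 0.06, and of these Hars2 alone was apart between groups.

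The other 5 mitochondrial genes had changes below 0. Lars2, the leucyl enzyme, was at 44.3 and 47.0 FPKM against 23.9 and 32.7 FPKM. It lay lower in both libraries labelled KO, at 0.621 of the wild-type mean, and 1.80% of all genes had a smaller change than its -0.69 ± 0.23. It did not pass as deposited (limma adjusted p = 0.0652), and after trimmed-mean scaling it was called lower (log2 change -1.13, limma adjusted p = 0.0363). Its level was 6.00 and 5.57 times that of Iars2 in the wild type and 2.03 and 2.97 times in the libraries labelled KO. Yars2, for tyrosine, was at 5.05 and 4.73 FPKM against 4.50 and 3.58 FPKM (limma adjusted p = 0.359). Wars2, for tryptophan, was at 3.42 and 3.14 FPKM against 2.94 and 3.04 FPKM (limma adjusted p = 0.672). Ears2, for glutamate, was at 5.55 and 5.13 FPKM against 5.28 and 5.03 FPKM (limma adjusted p = 0.861), and the groups overlapped, as they did for Nars2.

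The ratio of summed FPKM between the compartments depended much on the Lars2 row. Its libraries stood in the same order as those of Rn45s, the row of the ribosomal RNA precursor (Other observations). A link between these rows was not tested. The summed FPKM of the cytosolic genes was 2.50 and 2.39 times that of the mitochondrial genes in the wild type and 3.77 and 3.04 times in the libraries labelled KO. Without Lars2 these ratios were 4.58 and 4.19 against 4.94 and 4.35, and the groups overlapped.

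For 13 amino acids 1 cytosolic and 1 mitochondrial member can be paired. The cytosolic gene had the higher mean level in 10, and the mitochondrial one in those for cysteine, isoleucine and leucine. Both genes were called higher for 2 amino acids, alanine and valine, the cytosolic gene alone for tryptophan, and the mitochondrial gene alone for 0. Wars and Wars2 had changes of 0.84 and -0.10, Yars and Yars2 of 0.34 and -0.23, and Lars and Lars2 of 0.39 and -0.69. The pairs for serine, threonine, arginine and cysteine lay the other way, with the larger change in the mitochondrial gene. The differences within pairs were not tested.

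**Figure D3:**
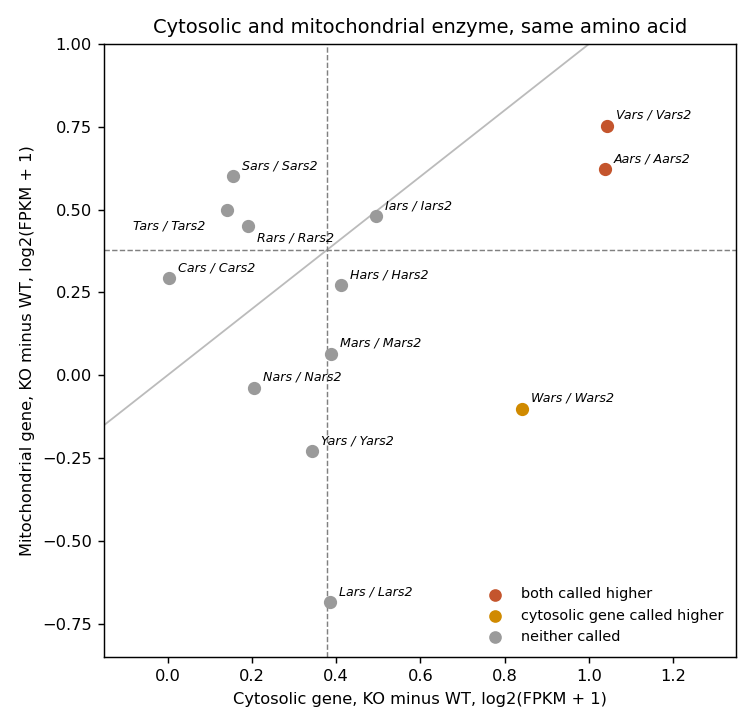
Change of the mitochondrial gene (vertical) against that of the cytosolic gene for the same amino acid (horizontal), both KO minus WT on the log2(FPKM + 1) scale, for 13 pairs; dashed lines mark the median of all genes and the grey line equal change. Vars with Vars2 and Aars with Aars2 lie at the upper right, Wars with Wars2 to the right, and Lars with Lars2 lowest.

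Synthetases belong to 2 classes with unrelated catalytic folds. Of 19 class I genes 4 rose as deposited (21.1%, against 25.6% of all genes), the median was 0.39, and both libraries labelled KO lay above the wild type for 11 and below it for 3. Of 17 class II genes 4 rose (23.5%), the median was 0.31, and the libraries labelled KO lay above for 12 and below for 0. Both libraries labelled KO lay above for 57.9% of class I and 70.6% of class II genes, against 58.5% of all genes. They lay below for 12.1% of all genes, and the median of all genes tested was 0.38. The difference between the classes was not tested.

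The other genes of the pathway came from a list of 63 symbols, of which 58 were tested. As deposited, 11 rose (19.0%, against 25.6% of all genes) and 0 fell. The median was 0.21, beside 0.38 for all genes. Both libraries labelled KO lay above both of the wild type for 41.4%, against 58.5% of all genes. Of 5 genes of tRNA editing and of the transamidation that makes mitochondrial glutaminyl-tRNA, 0 passed. Among 12 genes of tRNA maturation and export, Elac2 (the enzyme that trims the tRNA 3′ end) rose 1.80-fold and Tsen54 (a subunit of the tRNA splicing endonuclease) 2.10-fold (limma adjusted p = 0.0334 and 0.0262). Of 6 selenocysteine genes, Secisbp2, which binds the selenocysteine insertion element, rose 1.98-fold (limma adjusted p = 0.0226). Elac2, Tsen54 and Secisbp2 did not pass after trimmed-mean scaling (limma adjusted p = 0.271, 0.102 and 0.0977).

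Of 9 amino acid transporters tested, 4 rose as deposited (44.4%, against 25.6% of all genes; the difference was not tested). Slc1a5, a glutamine and neutral amino acid carrier, was at 16.5 and 22.6 FPKM against 49.7 and 43.3 FPKM (2.38-fold, log2 change 1.22 ± 0.23; limma adjusted p = 0.0173). Slc38a1, another glutamine carrier, was at 4.67 and 5.34 FPKM against 12.8 and 12.4 FPKM (2.52-fold, log2 change 1.18 ± 0.18; limma adjusted p = 0.0131). These 2 were called higher after trimmed-mean scaling too (limma adjusted p = 0.046 and 0.0404). Neither was called after quantile normalization (limma adjusted p = 0.0537 and 0.0584) or with no filter (0.141 and 0.114). Slc7a1, a carrier of arginine and lysine, rose 2.10-fold, and Slc43a1, a carrier of large neutral amino acids, rose 2.74-fold from 0.730 and 0.787 FPKM (limma adjusted p = 0.0213 and 0.025). Slc7a1 and Slc43a1 did not pass after that scaling (limma adjusted p = 0.101 and 0.091). Slc3a2 and Slc7a5, the subunits of the leucine carrier, did not pass, with changes of -0.17 and 0.53.

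Among 19 tested genes of amino acid sensing and the ATF4 response, 4 rose as deposited (21.1%, against 25.6% of all genes) and 0 fell. Both libraries labelled KO lay above both of the wild type for 42.1%, against 58.5% of all genes. Psat1, of serine synthesis, was at 5.58 and 5.34 FPKM against 13.7 and 11.3 FPKM (2.30-fold, limma adjusted p = 0.0151). Aldh18a1, of proline synthesis, rose 1.78-fold, Gcn1l1, the ribosomal activator of GCN2, 1.89-fold, and Impact, which inhibits that step, 1.87-fold (limma adjusted p = 0.0266, 0.0216 and 0.0378). Eif2ak4 itself was at 1.38 and 1.62 FPKM against 2.45 and 2.85 FPKM, apart between groups, and did not pass (limma adjusted p = 0.0677). Atf4 was at 79.8 and 132 FPKM against 72.7 and 124 FPKM, so it differed more between replicate numbers than between genotypes (log2 change -0.11, limma adjusted p = 0.825). Ddit3, the ATF4-induced factor CHOP, was at 21.3 and 21.9 FPKM against 15.3 and 16.3 FPKM; it did not pass as deposited (limma adjusted p = 0.125) and was called lower after trimmed-mean scaling (adjusted p = 0.0373, limma). Psat1, Aldh18a1, Gcn1l1 and Impact did not pass after that scaling (limma adjusted p = 0.0604, 0.207, 0.13 and 0.24).

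**Figure D4:**
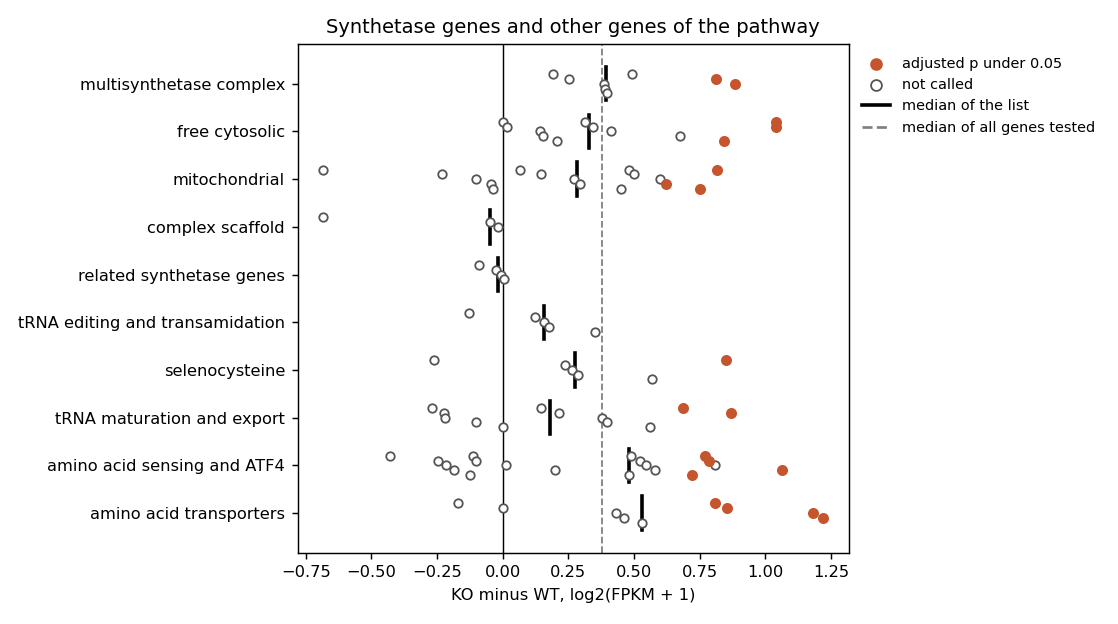
Changes of the 36 synthetase genes (upper 3 rows) and of 58 other genes of the pathway, KO minus WT on the log2(FPKM + 1) scale; filled points passed an adjusted p of 0.05, black bars are list medians and the dashed line is the median of all genes. The transporter and the sensing lists have medians of 0.53 and 0.48, to the right of the dashed line, and the 3 scaffold genes lie below 0.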

How the data were processed

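Each library has a table of its own in which the authors give FPKM by gene symbol, per the file headers. The submitters' processing notes name Bowtie 0.12.2 and mm8; the sources used here do not name the program and annotation behind FPKM. Rows reaching 1 FPKM in 2 or more libraries (11074 of 23700) entered a limma fit (version 3.58.1, R 4.3.3, variance trend on intensity) of log2(FPKM + 1), a scale that understates the change of low genes. Tests were two-sided, with Benjamini-Hochberg adjustment over all rows and a threshold of 0.05. Folds are ratios of mean FPKM. Trimmed-mean scaling trimmed 30% of log ratios and 5% of levels at each side; its factors were 0.799 (WT 1), 0.915 (WT 2), 1.20 (KO 1) and 1.14 (KO 2). Depth was estimated from low values of genes with 1 transcript, at an assumed fragment length of 200 nt; between 50.4% and 58.8% of these values lay within 0.05 of a whole fragment, too few for a test on counts. The fit was tested on simulated data. Figures were drawn with matplotlib 3.10.9 in Python 3.11.15.

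The members, the lists and the rule for named genes were chosen with earlier results of these data known. The rule gave values by library for all called members, for the 4 uncalled members with the largest and the 4 with the smallest change, named the called genes of the other lists, and added Atf4, Eif2ak4, Aimp1, Aimp2 and Eef1e1; Farsa, Farsb, Ddit3, Slc3a2, Slc7a5 and genes below the filter were added after their values were seen. A gene of the other lists is not reported here. Alternatives were other scalings, pseudocounts, filters and forms of the limma test, a block for the replicate number, and each library left out in turn. With 2 libraries a group, the smallest exact permutation p is 0.333 (two-sided).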

Additional observations from a re-analysis of the deposited data

How the results depend on the processing

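The count of 8 synthetase genes higher was 8 or more with either pseudocount, without the intensity trend, with the robust form and with the replicate block. It was 0 after trimmed-mean scaling, 0 after quantile normalization, 0 with no filter and 5 with a filter at 5 FPKM, which left 27 members, and it ran from 0 (without WT 1) to 5 on leaving out 1 library. At an unadjusted p under 0.05 (limma) there were 10 members after trimmed-mean scaling, 9 after quantile normalization, 15 with no filter and 10 without WT 1. The count of members lower was 1 after trimmed-mean scaling and 1 with the robust form, Lars2 both times. Of all genes, 2832 were higher and 111 lower as deposited. Trimmed-mean scaling gave 501 and 414. Quantile normalization gave 179 higher, no filter 0 and 0 of 23700 rows (4988 with an unadjusted p under 0.05), and the robust form 171 lower. Leaving out 1 library gave 9 to 2189 higher and 0 to 123 lower.

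The replicate numbers come from the titles and nothing ties equal numbers to a shared mouse or day. The correlation of WT 1 minus WT 2 with KO 1 minus KO 2 over 11074 genes was 0.11, and with 2 pairs it does not show pairing. With the replicate block 3909 genes were higher and 230 lower, and 10 members were higher (Gars and Sars2 in addition).

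Trimmed-mean scaling turned the sign of 17 uncalled members: Hars -0.016, Mars -0.017, Eprs -0.026, Lars -0.028, Yars -0.054, Farsa -0.11, Pars2 -0.11, Cars2 -0.11, Hars2 -0.11, Dars -0.18, Mars2 -0.19, Nars -0.23, Rars -0.24, Tars -0.28, Sars -0.28, Cars -0.38 and Farsb -0.40. Quantile normalization turned 17: Rars2 -0.0079, Eprs -0.023, Lars -0.043, Dars -0.0503, Mars -0.059, Nars -0.11, Farsa -0.11, Yars -0.12, Cars2 -0.15, Hars2 -0.19, Pars2 -0.19, Sars -0.22, Rars -0.22, Mars2 -0.28, Tars -0.28, Farsb -0.42 and Cars -0.47. A pseudocount of 5 turned Cars (-0.00125). On leaving out 1 library the changes with a turned sign ran as follows: Cars -0.18 to 0.18, Farsb -0.062 to 0.096, Cars2 -0.011 to 0.60, Mars2 -0.16 to 0.29, Ears2 -0.091 to 0.00504, Pars2 -0.073 to 0.36, Tars -0.063 to 0.35, Nars2 -0.14 to 0.065, Atf4 -0.49 to 0.27, Aimp1 -0.18 to 0.079 and Aimp2 -0.20 to 0.16. Set against the median gene of each setting with a filter, Vars, Aars, Kars, Wars, Qars, Gars and Iars2 lay above in all 13. Fars2, Vars2, Aars2 and Sars2 lay above in all 12 that tested them. Below in all 13 lay Lars2 (-1.30 to -0.80), Cars, Farsb, Nars, Rars, Sars, Tars and Ears2. Mars2, Nars2, Wars2 and Yars2 lay below in all 12 that tested them.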

Other observations

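Rn45s, the row of the ribosomal RNA precursor, had 242 FPKM in WT 1, 269 FPKM in WT 2, 106 FPKM in KO 1 and 149 FPKM in KO 2. Its libraries thus stood in the same order as those of Lars2 (44.3, 47.0, 23.9 and 32.7 FPKM). The row was looked up after the values of Lars2 were seen, and a link between them was not tested.

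Below the filter, and so without a test, were Asns, Slc1a4, Slc6a9 and Chac1. Asns, the asparagine synthetase and a target of ATF4, had 0.162 and 0.235 FPKM (wild type) against 1.25 and 0.664 FPKM (labelled KO). Slc1a4, a carrier of alanine and serine, was at 0.3503 and 0.230 FPKM against 0.655 and 1.70 FPKM, and Slc6a9, a glycine carrier, at 0.121 and 0.132 FPKM against 0.296 and 0.542 FPKM. Chac1, another target of ATF4, was listed at 0 in all 4 libraries.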
